A study of Mus musculus with 15 samples.

Results

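Ubd encodes FAT10, a ubiquitin-like modifier, and its transcript was followed here in mouse cardiac and hepatic allografts and in control tissue of both organs. It was chosen for its very large rise in every allograft group, so its differences between allografts and controls are given as a description, with no test. All probes whose accession belongs to Ubd were taken, which gave 1 probe, A_52_P338066 (NM_023137), with 1 spot on each array, out of 41174 probes for 32171 genes. The measurements came from 15 one-colour Agilent arrays divided among 5 groups of 3. Cardiac grafts had been moved from male B10 (C57BL/10, H-2b) donors into the abdomen of male CBA (H-2k) recipients, a heterotopic position. They were taken at postoperative day 5 (POD5). Hepatic grafts from BR (B10.BR, H-2k) donors had replaced the liver of D2 (B10.D2, H-2d) recipients and were taken at POD5 or at POD8. The remaining groups were cardiac controls and hepatic controls, which the sample labels call normal tissue, while passages of the study speak of isografts or syngeneic grafts. The strain of the controls was not stated. No drug treatment or genetic change was named for any group, and the labels do not tell whether the 3 arrays of a group came from separate mice, which the methods describe for the PCR measurements. P-values may therefore measure only the spread between these arrays.

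FAT10 carries a pair of ubiquitin-like domains and ends in a free diglycine, by which it is joined to other proteins through its activating enzyme UBA6 and its conjugating enzyme UBE2Z. Proteins joined to FAT10 are handed to the proteasome for degradation. The gene lies in the class I region of the major histocompatibility complex, is expressed in mature dendritic cells and lymphoid organs, and is known to be induced by interferon-γ together with tumour necrosis factor.

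The letters before the Ubd gene are printed because its promoter is where those signals are known to act. RefSeq placed the promoter window, from 250 bases before the start of the gene to 50 bases after it, at chr17:37193642-37193941 on the plus strand of GRCm38.p6. Capitals mark the single match to the kappaB consensus, the motif bound by NF-kappaB factors, which began 15 bases before the start of the gene. Beside it is the window of Gbp2b, a guanylate-binding GTPase gene whose profile over the arrays was closest to that of Ubd by root mean square difference, at chr3:142594597-142594896 on the plus strand. Its capitals mark the single match to the core of the interferon-stimulated response element.
Ubd: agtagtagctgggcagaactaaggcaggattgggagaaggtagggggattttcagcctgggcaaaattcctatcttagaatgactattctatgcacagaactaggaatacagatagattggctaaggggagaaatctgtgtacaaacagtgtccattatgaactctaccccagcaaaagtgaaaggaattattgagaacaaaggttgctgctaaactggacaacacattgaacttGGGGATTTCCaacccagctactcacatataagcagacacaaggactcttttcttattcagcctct
Gbp2b: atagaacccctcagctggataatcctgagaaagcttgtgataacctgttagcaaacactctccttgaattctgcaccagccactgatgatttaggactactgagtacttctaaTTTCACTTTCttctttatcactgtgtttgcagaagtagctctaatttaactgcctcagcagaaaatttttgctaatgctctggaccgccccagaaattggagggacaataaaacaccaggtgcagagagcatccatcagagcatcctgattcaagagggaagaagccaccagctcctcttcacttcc
The kappaB consensus was found on either strand in 8.46% of 32851 RefSeq promoter windows of this length. The response element core, searched on both strands as GAAA, any 2 bases and GAAA again, was found in 3.44% of them and not in the Ubd window. The gamma-activated site, TTCNNNGAA, which reads the same on both strands, was found in 8.30% of them and not in the Ubd window either. These matches describe letters only, and their absence from a window of this size says nothing of the factors that act on the gene.

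The Ubd probe was marked well above background on all 15 arrays, was saturated on 0 of them and carried no outlier mark. On cardiac allografts 1 to 3 and hepatic POD5 allografts 1 and 3 its value was scaled up from a scan at low gain. No other array had this mark. The scan gain thus differed between groups, and its part in the differences was not tested. The processed signal, an intensity on the linear scale, was 126, 13.6 and 80.1 in cardiac controls 1 to 3. It was 19700, 35117 and 22363 in cardiac allografts 1 to 3. All 3 cardiac allografts were bright and all 3 controls were dim, with cardiac control 2 the dimmest of the 15 arrays. Its median spot signal was 2.28 times its local background. Hepatic controls 1 to 3 read 59.1, 111 and 185. Hepatic allografts read 49690, 19192 and 34339 at POD5, and 12343, 20854 and 18026 at POD8. As in the heart, every hepatic allograft lay above every control, and the signals of the controls of both organs overlapped before normalization. On the 9 allograft arrays Ubd was among the brightest transcripts, with 228 to 936 probes brighter, whereas 10931 to 12032 probes were brighter on hepatic controls and 19696 to 27860 on cardiac controls.

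After log2 transformation and quantile normalization over all 15 arrays, the levels of Ubd were 5.60, 2.92 and 5.25 in cardiac controls, a mean of 4.59 ± 1.46 (SD, n = 3). They were 14.01, 14.96 and 14.23 in cardiac allografts, a mean of 14.40 ± 0.49 (SD, n = 3). The lowest allograft was 8.42 above the highest control, and the scatter of the controls came mostly from control 2. In the liver the controls had levels of 8.11, 8.23 and 8.47 (8.27 ± 0.18, SD, n = 3). The allografts had 15.62, 14.35 and 15.37 at POD5 (15.11 ± 0.67, SD, n = 3) and 13.72, 14.34 and 14.16 at POD8 (14.07 ± 0.32, SD, n = 3). Here the lowest allograft was 5.89 above the highest control at POD5 and 5.26 above it at POD8.

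**Figure D1:**
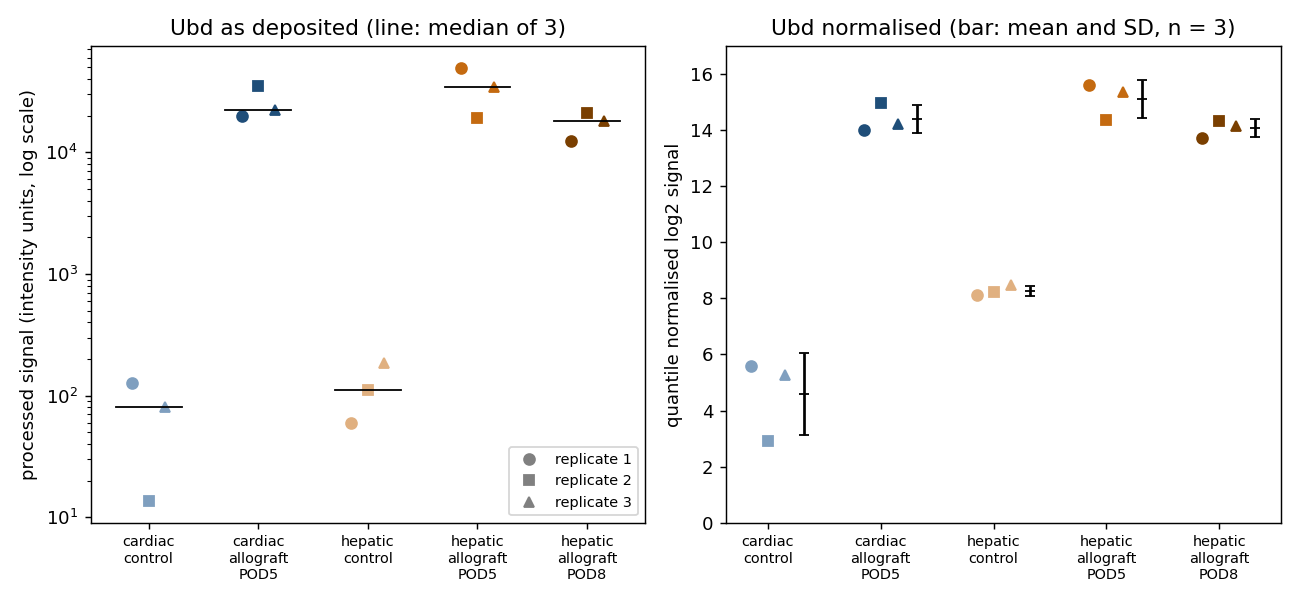
The left panel shows the deposited processed signal of Ubd on each array on a log axis, with the median of each group as a line, and the right panel the quantile normalized log2 signal with the mean and SD of 3 arrays. The 9 allograft arrays sit between 12343 and 49690 in processed signal and the 6 control arrays between 13.6 and 185.

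The difference between allografts and controls in normalized level was 9.81 on the log2 scale in the heart at POD5, 897-fold. In the liver it was 6.85 at POD5, 115-fold, and 5.81 at POD8, 56.0-fold. Among 41003 probes these differences held rank 5, 5 and 9 by size, while the median difference of all probes was 0.02, −0.07 and −0.08. The folds are those of the quantile normalized scale, since without normalization the log2 differences were 8.23 and 7.29 in the liver, and with a model-based background correction the cardiac one was 7.79. Leaving out control 2 changed the cardiac value to 8.97. On the slide that held both hepatic controls and POD8 allografts, 2 of each, the difference was 5.86. Cardiac allografts and cardiac controls lay on separate slides, so slide and group cannot be told apart for them. Hepatic POD5 allografts shared no slide with hepatic controls either. With slide as a random block their difference was 6.84, but this fit cannot part slide from group where no slide is shared. In tissue RNA, more cells that express a gene and more of its RNA in each cell cannot be told apart either.

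In order of normalized level, cardiac controls were lowest, followed by hepatic controls, hepatic allografts at POD8, cardiac allografts at POD5 and hepatic allografts at POD5. The arrays of the 3 allograft groups overlapped with those of the neighbouring group in this order, with means 0.32 and 0.72 apart. Both other steps, from cardiac to hepatic controls (3.68) and from hepatic controls to POD8 allografts (5.81), had no overlap. The gap between the controls of both organs was not seen before normalization, where their signals overlapped (13.6 to 126 and 59.1 to 185). Hepatic control arrays were dim as a whole, with a 75th percentile of signal of 88.5 to 218 against 943 to 1161 on cardiac control arrays and 321 to 657 on allograft arrays.

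Whether Ubd differed between the hepatic time points was tested, since the gene had not been chosen by it. The level at POD8 was 1.04 lower than at POD5 on the log2 scale (difference −1.04, SE 0.58, 95% confidence interval −2.31 to 0.23, Limma adjusted P = 0.624). An exact permutation test of 3 arrays against 3, 2-sided, gave P = 0.10, the smallest value this design allows. The interval reached from a 4.96-fold lower level at POD8 to a slightly higher one. All 3 normalized levels at POD8 lay below the 3 at POD5, though hepatic POD5 array 2, at 14.35, was only just above the highest of them, 14.34, and the processed signals of both days overlapped. The values of hepatic POD5 arrays 1 and 3 were scaled up from a scan at low gain, and those of POD5 array 2 and of POD8 were not. The part of the scan gain in this difference was not tested. The arrays of these days shared no slide. Few transcripts of the array differed between these days, 0.0219% of probes being higher at POD8 and 0.00732% lower.

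The allograft-control difference of Ubd was 2.96 larger in the heart than at hepatic POD5 on the log2 scale, which is given as a description because the gene was chosen for both differences. The normalized levels of the allografts of both organs overlapped (14.01 to 14.96 and 14.35 to 15.62), and those of the controls did not (2.92 to 5.60 and 8.11 to 8.47). The value moved to 0.69 without normalization, to 1.26 with the model-based background correction of the median spot signals and to 2.12 without cardiac control 2. Organ and strain combination differed together in this comparison and cannot be told apart. On the slide that held the 3 cardiac allografts and 1 hepatic allograft of POD5, the hepatic one was 0.97 higher in level than the mean of the cardiac ones.

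**Figure D2:**
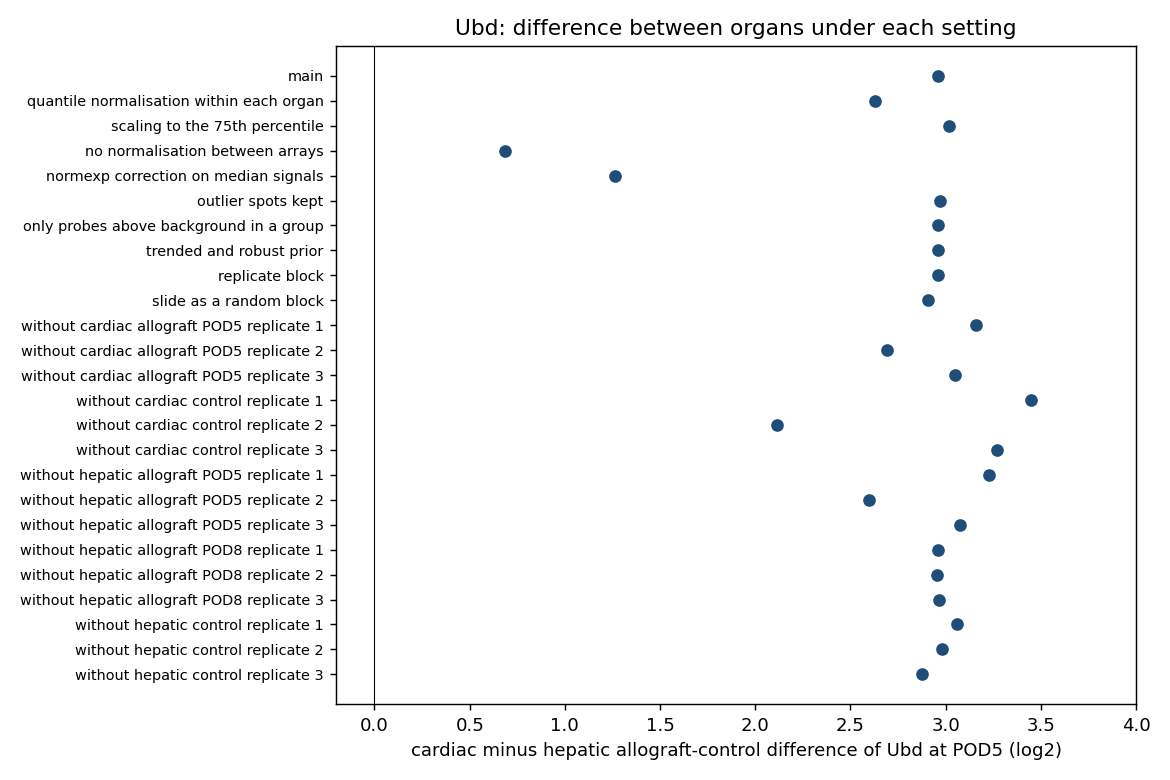
Each point is the difference between organs in the allograft-control difference of Ubd at POD5, in log2 units, under one processing setting or without one array. All values are above 0, from 0.69 without normalization to 3.45 without cardiac control 1.

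The cytokines and factors that are known to induce FAT10 were measured next, as 14 of 15 genes of a list of interferon-γ, tumour necrosis factor and interleukin-6 signalling; Nfkb1 had no probe matched by accession. Ifng, the gene of interferon-γ, read 4.43, 4.07 and 4.35 in cardiac controls and 13.99, 15.39 and 15.12 in cardiac allografts on the normalized log2 scale. In the liver it read 3.53, 4.70 and 4.78 in controls, 9.67, 9.93 and 10.78 in allografts at POD5, and 10.41, 10.70 and 10.46 at POD8. No allograft overlapped with a control, and of the hepatic controls 2 of 3 arrays were above background. The difference was 10.55 in the heart (adjusted P = 1.89e-08), 5.79 at hepatic POD5 (adjusted P = 5.03e-06) and 6.19 at POD8 (adjusted P = 3.15e-06). Set beside Ubd, the allograft groups stood apart in Ifng, with means of 14.84 ± 0.75 in cardiac and 10.13 ± 0.58 in hepatic allografts at POD5 (SD, n = 3), whereas the Ubd levels of the same arrays overlapped.

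Tnf, the gene of tumour necrosis factor, rose by 4.47 in the heart (adjusted P = 1.1e-05), by 2.55 at hepatic POD5 (adjusted P = 0.00136) and by 3.22 at POD8 (adjusted P = 0.000344), with 2 of 3 hepatic controls above background. Irf1, an interferon-induced transcription factor, rose by 4.20, 1.72 and 2.12 in these comparisons. The kinase Jak2 rose by 1.29, 0.71 and 1.03 and the tumour necrosis factor receptor Tnfrsf1b by 1.33, 0.92 and 0.73. The Jak2 call at hepatic POD5 was lost with slide as a random block (adjusted P = 0.0778) and held in 5 of the 15 fits that each left out 1 array, and the Tnfrsf1b call at POD8 held in 11 of them. In each comparison 7 of the 14 genes were higher and 0 were lower by Limma, and at an unadjusted P of 0.05 the lower counts were 2, 1 and 0. Of all probes, 13.3% were higher and 15.3% lower in the heart, 8.12% higher and 7.02% lower at hepatic POD5, and 7.02% higher and 4.65% lower at POD8. Rela and Ifngr1 were each called in 1 organ. Rela, a subunit of NF-kappaB, rose by 0.77 in the heart (by normalized signal, with the sign turned without normalization) and the receptor chain Ifngr1 by 1.04 and 0.67 in the liver. Il6, the gene of interleukin-6, had differences of 0.42, 0.94 and −0.37, and none passed the test. The Limma interaction test of the difference between organs, by which 8.49% of all probes had a more positive difference in the heart and 9.54% a more positive one in the liver, was passed by Ifng (4.76), Irf1 (2.48), Tnf (1.91), Rela (1.13) and Ifngr1 (−1.41), each as the cardiac minus the hepatic difference at POD5. The median of this value over all probes was 0.08, but −1.69 without normalization, so interactions of such size may depend on the scaling.

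The enzymes that attach FAT10 and the proteins that bind it had differences between −1.30 and 2.52, most of them not called. Uba6, the gene of its activating enzyme, read 8.52, 8.48 and 8.59 in cardiac controls and 7.46, 6.66 and 7.58 in cardiac allografts, a fall of 1.30 (difference −1.30, SE 0.34, adjusted P = 0.0116). In the liver its differences were 0.12 at POD5 and −0.10 at POD8, with overlapping arrays and no call. Ube2z, the gene of the conjugating enzyme, rose by 0.58 in the heart (adjusted P = 0.00226), a change whose sign turned without normalization, and had differences of 0.11 and 0.17 in the liver. Nub1, which speeds the degradation of FAT10, had differences of 0.34, −0.28 and 0.04, none of which passed the test.

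Mad2l1, a spindle checkpoint protein that FAT10 binds, was the member of this list called higher in all 3 comparisons, by 1.39 in the heart (adjusted P = 0.0141), 2.52 at hepatic POD5 (adjusted P = 0.000874) and 1.99 at POD8 (adjusted P = 0.00459). Its cardiac call was lost with slide as a random block (adjusted P = 0.0546), without cardiac allograft 3 and without cardiac control 2 (adjusted P up to 0.0607). Psmd4, the ubiquitin receptor of the proteasome, rose by 0.47 and Otub1, a deubiquitinase, by 0.70 in the heart, and both signs turned without normalization. The Psmd4 call was lost with slide as a random block (adjusted P = 0.125) and held in 11 of the 15 fits without 1 array. Hdac6, which carries FAT10 conjugates to aggresomes, had differences of −0.68 and −0.70 in the liver, with adjusted P = 0.046 and 0.0474 and with the sign turned without normalization. These calls held in 3 and 4 of the 15 fits without 1 array (adjusted P up to 0.146), and the POD5 one was lost with slide as a random block (adjusted P = 0.114). The autophagy receptor Sqstm1, the segregase Vcp, and Psmd1 and Psmd2 of the proteasome were not called. Of the 12 genes of the list, 4 were higher and 1 lower in the heart, and 1 was higher and 1 lower at each time in the liver. The hepatic counts are near the share of all probes, given above, and the cardiac count of higher genes ran from 2 without cardiac allograft 3 to 6 without cardiac allograft 2. The median difference of the list was 0.38, 0.07 and 0.02.

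The catalytic subunits and activator chains of the immunoproteasome, the form of the proteasome that interferon-γ brings about, were higher in 5 of 5 genes in each comparison. Psmb9 read 11.72, 11.15 and 11.57 in cardiac controls and 15.64, 15.87 and 15.73 in cardiac allografts. In the liver it read 11.96, 12.19 and 12.35 in controls, 14.91, 14.67 and 15.30 at POD5, and 14.86, 15.05 and 14.92 at POD8. Its allografts thus lay above all controls, by a mean of 4.26, 2.80 and 2.78. The same subunit class had Psmb8 higher by 3.33, 2.49 and 2.23 and Psmb10 by 2.84, 1.43 and 1.22. The activator chains Psme1 and Psme2 were higher by 1.69, 1.21 and 0.81 and by 1.78, 1.21 and 0.89, and the signs of all 5 genes held under each scaling. The calls did not all hold. Psme1 and Psme2 lost their hepatic calls with scaling to the 75th percentile and their cardiac calls without normalization. The Psme1 call at POD8 was also lost without hepatic POD8 allograft 2 (adjusted P = 0.0645). By normalized signal the differences of Psmb9, Psmb10 and Psme2 were larger in the heart than at hepatic POD5 (interaction 1.47, 1.41 and 0.57). The median interaction of all probes moved from 0.08 to 0.64 with scaling to the 75th percentile and to −1.69 without normalization. Values of this size may therefore depend on the scaling.

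The constitutive subunits and the further activator Psme3 were called less widely than this, without a test of the difference. Of these 15 genes, 6 were higher in the heart, 3 at hepatic POD5 and 1 at POD8, and 0 were lower by Limma at an adjusted P of 0.05, while at an unadjusted P of 0.05 the lower counts were 0, 0 and 1. Of all probes, 13.3%, 8.12% and 7.02% were higher in these comparisons and 15.3%, 7.02% and 4.65% lower. The POD8 count of higher genes is near the share of all probes. Psmb5, Psmb6 and Psmb7, whose places the immunosubunits take, were not called in any comparison, with differences between −0.36 and 0.40. Psme3, which is not induced by interferon, rose by 1.77 in the heart and had differences of 0.16 and −0.12 in the liver (interaction 1.61). Psma5 rose by 0.91 in the heart and by 0.73 at hepatic POD5, where Psma1 rose by 1.02, followed by 0.64 at POD8. The Psma1 call at POD8 held in 10 of the 15 fits without 1 array. The smaller cardiac rises of Psma4, Psma7, Psmb3 and Psmb4 (0.41 to 0.85) turned their sign without normalization.

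**Figure D3:**
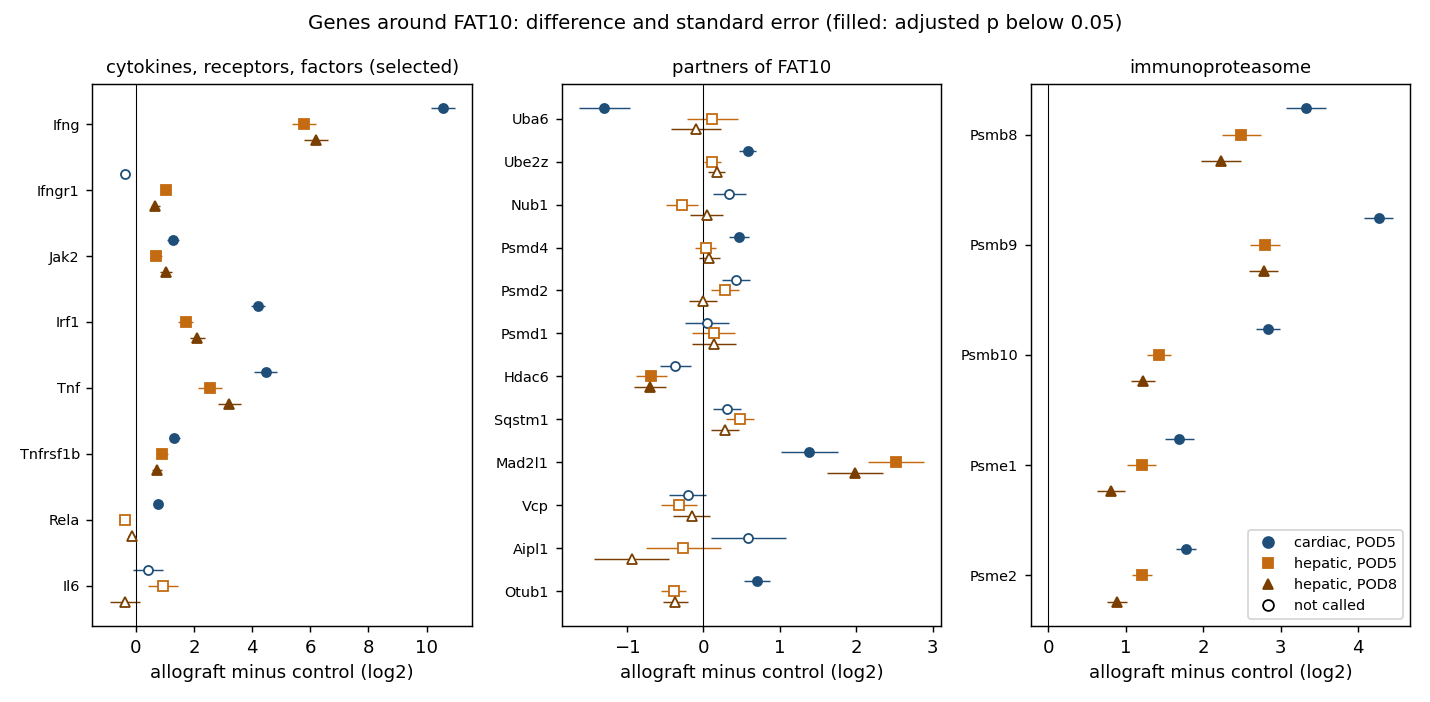
Points are allograft minus control differences on the log2 scale with their Limma standard errors, in the heart at POD5 and the liver at POD5 and POD8, for selected genes that induce FAT10 and for genes that bind or attach it or form the immunoproteasome; filled points had an adjusted P below 0.05. Every point of the immunoproteasome is filled and above 0, and among the partners Mad2l1 is filled in all 3 comparisons.

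Other ubiquitin-like modifiers had differences in both directions, most of them not called. Of 19 measured genes of 20 (Gabarapl2 had no probe matched by accession), 4 were higher and 3 lower in the heart, 2 higher and 1 lower at hepatic POD5, and 1 higher and 1 lower at POD8, with median differences of 0.14, −0.06 and 0.00. These counts are near the share of all probes, and the 3 lower in the heart became 1 without cardiac allograft 3 and 4 without cardiac allograft 2. Isg15, the interferon-induced modifier that also holds a pair of ubiquitin-like domains, was the member higher in all 3 comparisons. It read 11.40, 10.53 and 10.95 in cardiac controls and 12.87, 13.63 and 13.20 in cardiac allografts, and the differences were 2.27 (adjusted P = 0.000203), 1.60 (adjusted P = 0.0044) and 1.97 (adjusted P = 0.00143). Map1lc3a, an autophagy modifier of the LC3 group, had differences of −0.84, −0.97 and −0.89 and was called lower in all 3, with the hepatic signs turned without normalization. Its calls in the heart and at hepatic POD5 were lost with slide as a random block (adjusted P = 0.0861 and 0.0895), and the calls held in 11, 11 and 5 of the 15 fits without 1 array. Map1lc3b and Atg12 fell by 0.99 and by 0.63 in the heart. The Map1lc3b call held in all 15 fits without 1 array. The Atg12 call held in 11 of them (adjusted P up to 0.0656) and was lost with scaling to the 75th percentile. The ubiquitin gene Ubb, the SUMO gene Sumo3 and Nedd8 were not called in any comparison. Sumo2 was called higher at hepatic POD5 (0.62), a call lost with slide as a random block (adjusted P = 0.0661). Rps27a, Ubl4a and Ufm1 were called higher in the heart (0.43, 0.66 and 0.66), each with the sign turned without normalization, and another Ufm1 probe was called in the opposite direction. The calls of Rps27a and Ufm1 were lost with slide as a random block (adjusted P = 0.0736 and 0.0613). That of Ufm1 held in 12 of the 15 fits without 1 array.

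Among 9 activating enzymes of other modifiers, Uba7, which activates ISG15, read 11.16, 10.68 and 10.87 in cardiac controls and 13.98, 13.27 and 13.90 in cardiac allografts. It rose by 2.82 there, by 1.26 at hepatic POD5 and by 1.28 at POD8, a larger difference in the heart by normalized signal (interaction 1.55), which may depend on the scaling. Uba3, a subunit of the NEDD8 activating enzyme, fell by 1.29 in the heart and had differences of 0.18 and −0.08 in the liver (interaction −1.48). Uba2, of the SUMO activating enzyme, rose by 0.68 at hepatic POD5. That call was lost with slide as a random block (adjusted P = 0.0652) and held in 6 of the 15 fits without 1 array. Over the 6 lists together, 27 of 74 genes were higher and 5 lower in the heart, 20 and 2 at hepatic POD5, and 16 and 2 at POD8. Of all probes, 13.3% were higher and 15.3% lower in the heart, 8.12% and 7.02% at hepatic POD5, and 7.02% and 4.65% at POD8. Scaling to the 75th percentile gave 23 and 3, 13 and 5, and 12 and 3, and no normalization gave 9 and 19, 61 and 0, and 64 and 0. Without normalization the median difference of all probes also moved, to −0.46 in the heart and to 1.03 and 0.99 in the liver. Between POD8 and POD5, 0 of the 74 were called by Limma after adjustment, and at an unadjusted P of 0.05 the counts were 1 higher and 5 lower.

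The genes next to Ubd on chromosome 17 were compared to see whether its neighbourhood moved with it. Of the 10 protein coding genes on either side in the RefSeq order, 19 were measured, most of them olfactory receptor genes, and 5 were above background on 0 of 15 arrays. H2-M3, a nonclassical class I histocompatibility gene, read 10.19, 9.94 and 10.30 in cardiac controls and 11.84, 12.09 and 12.00 in cardiac allografts. It was higher by 1.84, 1.65 and 1.52 in the 3 comparisons and was the neighbour called in all of them. In the heart Znrd1as and Olfr91 had differences of −1.06 and −1.36, called lower, and Olfr90 a difference of 1.39, called higher. At POD8 the zinc finger gene Zfp57 was called higher (1.82), and these calls of Olfr90, Olfr91 and Zfp57 rest on 4, 3 and 6 of 15 arrays above background. Gabbr1, a subunit of the GABA-B receptor, was above background on all 15 arrays and was not called, with differences of 0.27, −0.26 and 0.44. The counts were 2 higher and 2 lower in the heart, 1 higher at hepatic POD5 and 2 higher at POD8, against median differences of the 19 genes of 0.26, −0.20 and −0.39. They are near the share of all probes, and the calls of Olfr91 and Zfp57 held in 12 and 8 of the 15 fits without 1 array.

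**Figure D4:**
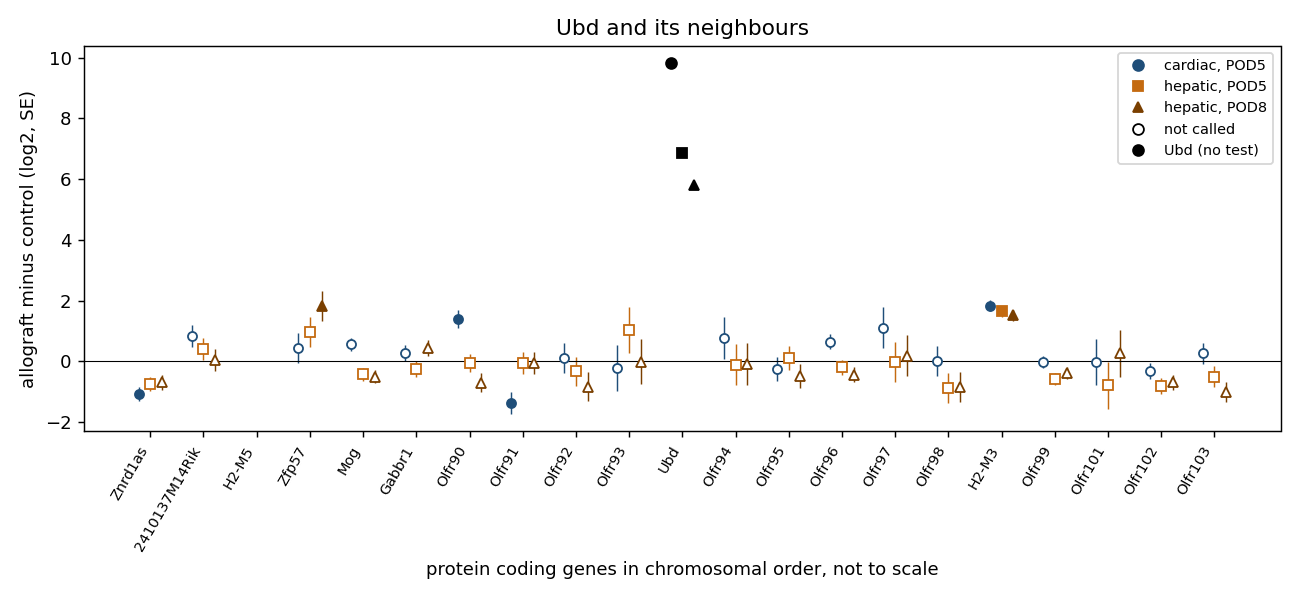
Allograft minus control differences on the log2 scale are shown for Ubd (black, no test) and its neighbours in chromosomal order, with Limma standard errors and filled points for an adjusted P below 0.05; H2-M5 had no probe and is empty. Ubd stands at 9.81, 6.85 and 5.81, and among the neighbours H2-M3 is filled in all 3 comparisons.

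The genes that followed Ubd most closely were ranked by the root mean square difference of log2 profiles over the 15 arrays, after the mean of each gene was removed, among 15671 genes above background on all 9 allograft arrays. This ranking describes likeness only, and since the arrays fall into allografts and controls it carries no test. The closest was Gbp2b at 1.22, followed by Cxcl9, a chemokine induced by interferon-γ, at 1.67 and Gzmb, the granzyme B gene of cytotoxic lymphocytes, at 1.92, against a median of 4.24 over all candidates. Gbp2b read 2.37, 1.37 and 1.20 in cardiac controls, where it was above background on 0 of 3 arrays, 11.67, 11.31 and 11.89 in cardiac allografts and 7.20 ± 1.14 (SD, n = 3) in hepatic controls. It shared with Ubd lower cardiac than hepatic controls, as did Gbp8 (means of 6.59 and 9.70). For Ubd this gap was not seen before normalization. The hepatic allografts of Gbp2b read 10.67 to 11.49.

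Cxcl9 read 9.89, 8.67 and 9.41 in cardiac controls, 16.21, 16.73 and 16.41 in cardiac allografts, 8.89, 9.99 and 9.41 in hepatic controls and 14.55 to 15.86 in hepatic allografts. Unlike the normalized levels of Ubd, those of Cxcl9 overlapped between the controls of both organs. The remaining 12 genes had values of 1.94 to 2.27. They were BC010322, M17534, NM_010381 and U07661, which kept the names of the files, Nkg7, Prf1 and Cd8a of cytotoxic lymphocytes, Cd27 of lymphocytes, the interferon-induced Gbp8, Zbtb32, Calhm6 and Ifng. Scaling to the 75th percentile gave the same 15 genes, and Pearson's r in place of the root mean square difference gave 0 of them. Of the 15 genes, 10 had a RefSeq promoter window. The response element core was found in those of Gbp2b and Calhm6 and the gamma-activated site in those of Gzmb, Nkg7 and Ifng, while the kappaB consensus of the Ubd window was found in none of them.

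**Figure D5:**
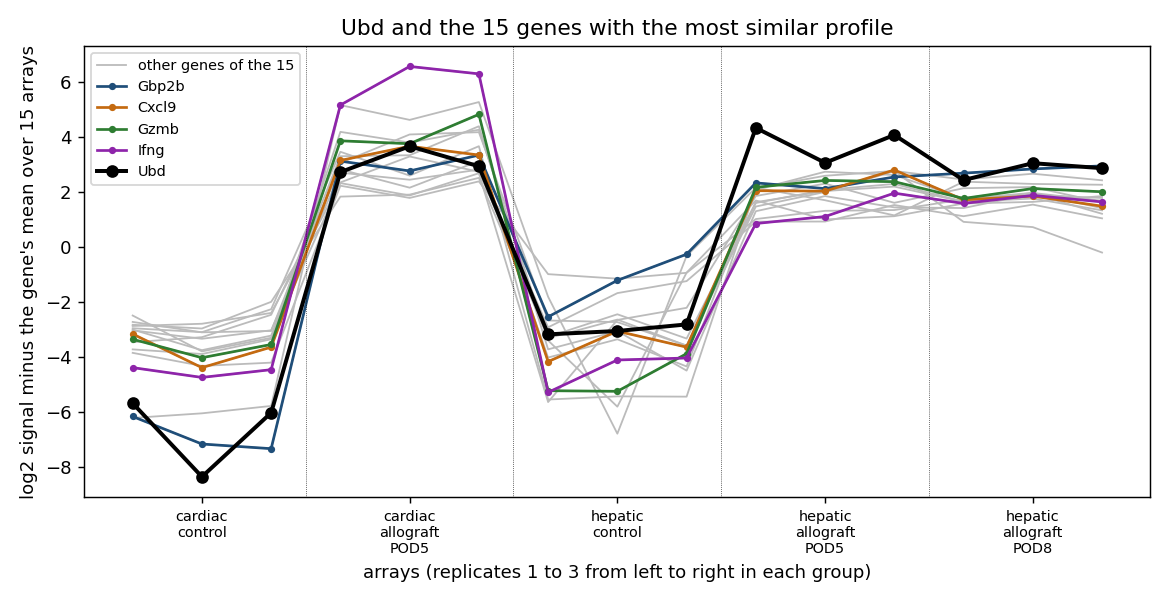
Lines show the log2 signal of Ubd (black) and of the 15 genes with the most similar profile over the 15 arrays, each minus its own mean, with Gbp2b, Cxcl9, Gzmb and Ifng in colour. All lines are low in the controls and high in the allografts. Ubd, Gbp2b and Gbp8 lie lower in cardiac than in hepatic controls with no overlap of arrays.

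Most markers of T cells and NK cells were higher in the allografts as well, and those of other cell types were called higher less widely or called lower. Of all probes, 13.3% were higher in the heart, 8.12% at hepatic POD5 and 7.02% at POD8. Of 6 T cell genes, 6 were higher in the heart, 4 at hepatic POD5 and 4 at POD8. The mean log2 level of the list ran from 5.64 to 6.10 in cardiac controls, 9.46 to 9.89 in cardiac allografts, 5.15 to 5.77 in hepatic controls, 9.26 to 9.63 at hepatic POD5 and 9.10 to 9.33 at POD8. Cd3d, a chain of the T cell receptor complex, rose by 4.67, 5.20 and 4.51, and Cd4 had differences of 0.77, −0.16 and −0.40, of which the cardiac one was called. Of 4 NK cell genes, 4, 2 and 4 were higher. Of 6 dendritic cell genes, the cells in which FAT10 is known to be expressed, 3 were higher and 1 lower in the heart and 2 were higher at each time in the liver. Ccr7, the homing receptor of mature dendritic cells, which T cells also carry, rose by 2.42, 2.73 and 3.26, with 1 of 3 hepatic controls above background. Of 5 B cell genes, 1, 0 and 0 were higher (1, 0 and 0 also at an unadjusted P of 0.05). Of 4 plasma cell genes, 0 were called in any comparison by Limma, and 2 were higher at POD8 at an unadjusted P of 0.05. Of 5 macrophage genes, 2 were lower in the heart, and 1 and 2 were higher in the liver. In the heart Mrc1 read 11.95, 11.73 and 11.91 in controls and 8.54, 8.64 and 8.71 in allografts. Clec4f read only 1.31 to 3.20 on the cardiac arrays. Adgre1, Csf1r and Itgam overlapped between cardiac controls and allografts. In the cardiac allografts 3 of 4 endothelial and 2 of 6 cardiomyocyte genes were lower, against 15.3% of all probes. So were 1 of 3 neutrophil genes and 2 of 4 genes of the bile duct epithelium list, which names no cell type of the heart. The mean log2 level of the endothelial list ran from 10.32 to 10.45 in cardiac controls and 8.37 to 9.04 in cardiac allografts. In the liver 0 and 1 endothelial genes were higher by Limma at POD5 and POD8 (2 and 1 at an unadjusted P of 0.05). The part of these cells in the level of Ubd was not tested.

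The tissue labels matched their marker genes. Alb, the albumin gene of hepatocytes, was above background on 0 of 6 cardiac arrays and between 17.82 and 18.01 on the 9 hepatic arrays, and Myh6, the cardiac myosin gene, was above background on 0 of 9 hepatic arrays. Myh6 read 16.79 to 17.24 in cardiac controls and 16.35, 13.65 and 15.99 in cardiac allografts. Cardiac allograft 2, the lowest in Myh6, had the highest Ubd, Ifng and Tnf of its group. It was also the dimmest of the 3, with a 75th percentile of signal of 365 against 656 and 657, and 56.2% of its probes above background against 67.0% and 61.3%. The relation between these genes was not tested.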

How the data were processed

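Total RNA was hybridized to 15 one-colour arrays, whose 5 groups of 3 were taken from the sample labels. The members and gene lists were chosen with earlier results of these data known. The authors deposited, per spot, an intensity processed by Feature Extraction 10.5.1.1 with its own correction and no normalization between arrays. This intensity is not simply the median signal minus the local background. For Ubd on cardiac control 2 these were 45.5 and 20, and the processed signal was 13.6. It is on a linear scale and was converted here to log2, and the deposited median intensities served 1 alternative. Spots with outlier marks were left out, spots of a probe were averaged, and 41003 probes with a value on every array were quantile normalized over all 15 arrays. Limma 3.58.1 in R 4.3.3 was fitted to all 5 groups, and P-values were Benjamini-Hochberg adjusted over all probes and called at 0.05. Each gene took its brightest probe. Names came from matching accessions to RefSeq (GRCm38.p6), which named 64.8% of probes, so a gene called not measured here had no match. The neighbours are 10 protein coding genes on either side, and the genes named as most alike are the 15 with the smallest root mean square difference. The plan assumed a gene name column, and the mean spot signal, which were not used here. Scripts were tested on simulated data, and matplotlib 3.10.9 (Python 3.11.15) made the figures. The number of arrays limits the precision, and 0.5 of a probe's spots had to be marked for it to count as above background. A planned interaction test of Ubd itself is not given, since the gene was chosen on the differences it compares. Some genes of the lists enter the counts and are not reported here by name.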

Additional observations from a re-analysis of the deposited data

Results flagged for a closer look

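By the Limma interaction test, the allograft-control difference at POD5 differed between the heart and the liver (cardiac minus hepatic, log2 scale) for several genes around Ubd. These values are those of the quantile normalized scale, where the median over all probes was 0.08. That median moved to 0.64 with scaling to the 75th percentile and to −1.69 without normalization. Values no larger than these shifts may depend on the scaling. The test was passed by Ifng (4.76), Irf1 (2.48), Tnf (1.91), Rela (1.13) and Ifngr1 (−1.41) among the inducers. It was passed by Otub1 (1.09) among the partners of FAT10, and by Uba7 (1.55) and Uba3 (−1.48) among the other activating enzymes. Of the proteasome genes it was passed by Psmb9 (1.47), Psmb10 (1.41), Psme2 (0.57), Psme3 (1.61), Psmb3 (0.74) and Psma1 (−0.75). The neighbouring gene Olfr90 passed it too (1.43), with 4 of 15 arrays above background.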

How the results depend on the processing

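The direction of the 5 Ubd differences was the same under all 24 alternatives computed for each. Without normalization the difference between allografts and controls moved to 8.23 at hepatic POD5 and 7.29 at POD8, and the difference between organs to 0.69. With the normexp background correction (offset 50) the values were 7.79 in the heart, 5.47 in the liver at POD8 and 1.26 between organs. Leaving out each array in turn gave 8.97 to 10.32 in the heart, 6.60 to 7.23 at hepatic POD5, 5.67 to 5.98 at POD8, −1.42 to −0.79 between POD8 and POD5, and 2.12 (without cardiac control 2) to 3.45 (without cardiac control 1) between organs. With a replicate block, the difference between organs kept 2.96 and that between POD8 and POD5 −1.04 (adjusted P = 0.631). Replicate numbers were not treated as pairs in the main fit. Of 30 same-numbered pairs of arrays, 1 had deviations correlated above 0.1 (range −0.12 to 0.16). With 3 arrays in a group this cannot exclude a pairing.

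The list calls were 32 in the heart, 22 at hepatic POD5 and 18 at POD8 over 74 genes, where 28.6%, 15.1% and 11.7% of all probes were called. Without normalization the list calls were 61 and 64 in the liver, where the median difference of all probes moved to 1.03 and 0.99. They were 12, 6 and 3 after Bonferroni adjustment, 4, 3 and 6 by the standardized fold change method with Bonferroni adjustment, and 1 and 6 in the liver by the methods' t-test after Benjamini-Hochberg adjustment (39, 25 and 24 unadjusted). Without 1 array they ranged from 26 to 35, 16 to 29 and 13 to 25, and with the replicate block they were 32, 20 and 17. With slide as a random block (correlation 0.26) they were 25, 16 and 19, and of the original calls 25, 16 and 18 held. Whichever 1 array was left out, 25, 15 and 12 of them held. Scaling to the 75th percentile moved the median difference of all probes to 0.47 in the heart and to −0.37 and −0.46 in the liver. The median of the difference between organs moved to 0.64 with that scaling and to −1.69 without normalization. Scan time as a block was not run because it was identical to the slide. The causes of these shifts were not tested.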

Other observations

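Ranked by Pearson's r with Ubd over the 15 arrays rather than by size of difference, the leading genes were of another kind. Of the first 15, 8 were class I histocompatibility genes, which present peptides to T cells, led by H2-Q2 and H2-K1. H2-K1 was higher in allografts than controls by 2.21 in the heart, 1.49 at hepatic POD5 and 1.21 at POD8 on the log2 scale, H2-D1 by 2.25, 1.55 and 1.38, and H2-T23 by 3.18, 1.31 and 1.02. These values are a description, since the genes were chosen for their likeness to Ubd on the same arrays. Class I genes are close copies of each other and differ between H-2 haplotypes of donor and recipient, so which gene and whose allele a probe reported is uncertain. Outside this family the list held Icos, a costimulatory receptor of T cells (3.97, 2.77 and 2.57), the interferon-induced GTPase gene Ifi47 (3.82, 1.98 and 2.32), the adaptor Sla2 and Ly6e.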
